A study of Mus musculus with 30 samples.

Results

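Livers of mice that carried an osmotic pump with ACBP were compared with livers of mice whose pump held phosphate-buffered saline (PBS). The comparison takes 10 of the 30 liver libraries of the study, selected by their treatment label: 5 labelled with the recombinant protein (ACBP livers) and 5 labelled PBS (PBS livers). All mice were wild-type female C57BL/6J animals, 8 weeks old when the pump was implanted, and the ACBP pump was filled at 2.5 mg/mL. No mouse of these 10 libraries received an anorexia model. The other groups of the study were used here only in fits of all groups and in the comparisons of the pump effect near the end. They had CRS (letters only in the labels, read here as restraint stress) started 48 hours after implantation or CDDP (cisplatin) started 72 hours after it, each with an ACBP or a PBS pump. The comparison asks what the ACBP pump alone does to liver mRNA. The labels give neither the species of the recombinant protein, nor the day on which livers were taken, nor whether each library came from its own mouse, so p-values measure the spread between these libraries.

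ACBP, the acyl-CoA-binding protein, is a small cytosolic protein that binds fatty acids activated with coenzyme A and carries them between enzymes of lipid metabolism. It also leaves cells, and outside them it is known as the diazepam-binding inhibitor (the name behind its gene symbol, Dbi) because it acts at GABA-A receptors; raised blood levels have been linked to more feeding, fat storage and less autophagy in mice. In liver these topics correspond to hepatocyte programmes for fatty acid synthesis and burning, secretion of plasma proteins and degradation in lysosomes.

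Dbi mRNA in the liver was the first item examined. The pump delivers protein, so the counted transcript is the mouse's own. The gene lies at chr1:120113280-120121078 on the minus strand (mm10). Its coding sequence runs over 4 coding exons and 264 bases, from chr1:120113460-120120953, and is shown because it is the transcript counted as Dbi and encodes the mouse form of the pumped protein, with the start and stop codons in capitals (GENCODE vM21, GRCm38).
Dbi: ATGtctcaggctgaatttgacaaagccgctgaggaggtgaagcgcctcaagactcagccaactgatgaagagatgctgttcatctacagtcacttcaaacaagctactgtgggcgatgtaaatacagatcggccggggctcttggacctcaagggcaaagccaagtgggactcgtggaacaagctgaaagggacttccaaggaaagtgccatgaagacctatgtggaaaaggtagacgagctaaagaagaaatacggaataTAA
Dbi reached 669, 687, 485, 610.2 and 779 CPM in the ACBP livers, against 528, 561, 759.7, 715 and 576 CPM in the PBS livers, where CPM are counts per 1000000 reads on genes after TMM scaling of the 10 libraries. The 2 groups overlapped over almost their whole range. The log2 fold change, ACBP over PBS, was 0.04 ± 0.14 (standard error), with an edgeR adjusted p of 0.944, and 0.06 ± 0.16 without ACBP replicate 4. Of the 7 tested genes with an acyl-CoA-binding domain, 1 had an unadjusted p under 0.05, where 4.56% of all genes were higher and 5.39% lower at that level: Eci3, whose product is a peroxisomal enoyl-CoA isomerase. Eci3 had 10.53, 6.10, 12.6, 11.3 and 6.83 CPM in the ACBP livers, against 6.11, 5.05, 4.84, 7.15 and 2.10 CPM in the PBS livers, and the groups overlapped through ACBP replicates 2 and 5 and PBS replicates 1 and 4. The remaining members included Acbd5, a tether between peroxisomes and the endoplasmic reticulum, at 157 ± 18.1 CPM in the ACBP livers and 145 ± 13.2 CPM in the PBS livers (SD, n = 5 each). Among GABA-A receptor subunits, 2 of 16 were expressed highly enough to be tested, and neither had an unadjusted p under 0.05.

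The labelled tissue was checked against hepatocyte markers: the 10 markers summed to between 91059 and 122617 CPM in ACBP livers and between 84354 and 115477 CPM in PBS livers. Reads counted on genes numbered 15202935 to 16797443 in ACBP libraries and 15147974 to 16775786 in PBS libraries. Of these libraries 3 stood apart. ACBP replicate 4 held brain transcripts: 171 of the 10595 genes at 5 CPM or more in it were over 4 times as high as in the highest of the other 9 libraries. The largest ratios included those of Snap25, Adcy1, Cbln3, Rgs8, Calb1, Zic1, Cbln1, Slc1a3 and Mobp. Snap25, a synaptic vesicle fusion protein, had 56.0 CPM in ACBP replicate 4 and no read in the other 9 libraries. Several of these genes are known from the cerebellum (Cbln1, Cbln3, Calb1, Zic1), as is Gabra6, at 18.8 CPM against no read elsewhere, while of the hypothalamic genes in the list Pmch, Hcrt, Oxt and Avp had no read in it, Agrp had 0.626 CPM and Pomc 0.375 CPM, neither above the highest of the other libraries (0.627 and 0.700 CPM). Skeletal muscle transcripts were high in ACBP replicate 2 (2679 CPM summed over 22 markers) and PBS replicate 2 (13855 CPM), and reached 733 CPM in PBS replicate 3, while the other 7 libraries held 55.1 to 183 CPM. Results are therefore given with and without ACBP replicate 4, and where it matters without ACBP replicate 2 and PBS replicate 2.

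**Figure D1:**
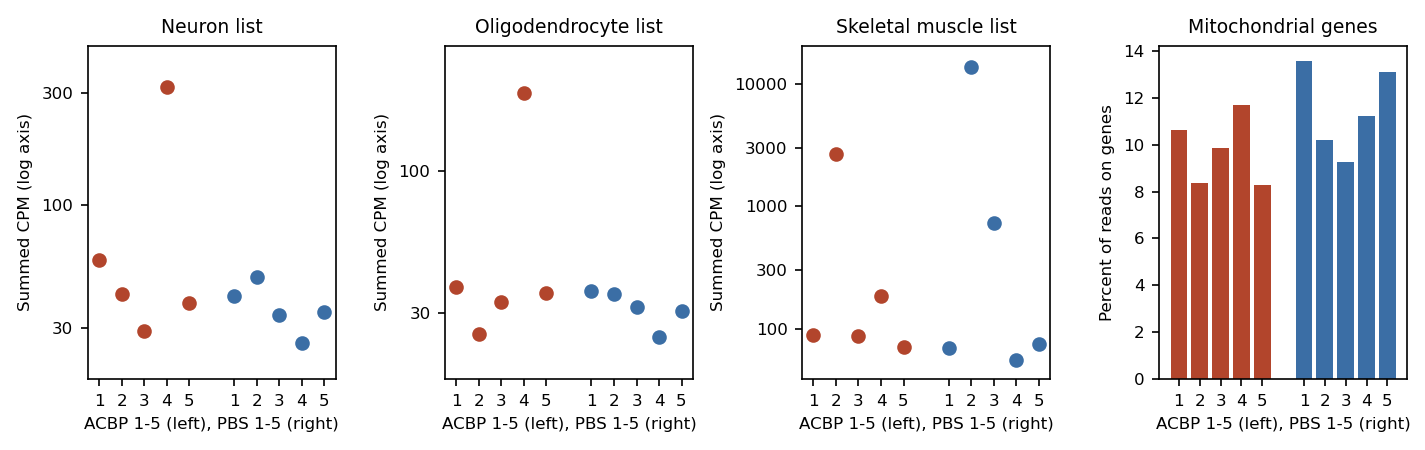
Summed CPM (log axis) of neuron, oligodendrocyte and skeletal muscle markers and the percentage of reads on mitochondrial genes, for each ACBP library (red, left) and PBS library (blue, right) by replicate number. ACBP replicate 4 reached 320 CPM over the neuron markers, against at most 58.5 CPM elsewhere, and PBS replicate 2 reached 13855 CPM over the muscle markers.

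No gene passed the test. Of 14831 genes, 0 (0%) had an edgeR adjusted p under 0.05, and the smallest adjusted p was 0.289. Without ACBP replicate 4, 0 of 14990 genes (0%) passed and the smallest adjusted p was 0.211. An unadjusted p under 0.05 was reached by 1475 genes (9.95%), of which 676 (4.56%) were higher and 799 (5.39%) lower in ACBP livers. Without ACBP replicate 4 the number was 1468 (9.79%), 635 (4.24%) higher and 833 (5.56%) lower. DESeq2 called 87 of the 14831 genes (0.587%), 37 higher (0.249%) and 50 lower (0.337%). It called 108 without ACBP replicate 4, whereas limma voom called 0. DESeq2 left 4959 of the 14831 genes without an adjusted p (6165 without ACBP replicate 4), so those genes could not be called. Without ACBP replicate 2 and PBS replicate 2, edgeR called 1 of 14845 genes (0.00674%), and 9.68% had an unadjusted p under 0.05, 4.72% higher and 4.96% lower. In 119 genes (0.802%) every ACBP library was above every PBS library, and in 181 (1.22%) below. Without ACBP replicate 4, the numbers were 218 (1.45%) and 330 (2.2%). The differences described below are accordingly values of these libraries, and none of them passed the edgeR test over all genes unless that is stated.

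Secreted proteins of the acute phase, which hepatocytes release in response to inflammatory cytokines, stood mostly above the PBS level. Of 28 tested genes, 13 had an unadjusted p under 0.05, each higher in ACBP livers, where 4.56% of all genes were higher. A positive log2 fold change was found in 25, and the median was 0.39, against a median of -0.00 over all genes. Without ACBP replicate 4 the count was 14 and the median 0.40. Fgb, the beta chain of fibrinogen, had 2568, 3109, 3260.4, 2831 and 3111 CPM in the ACBP livers, against 2109, 2325, 2254, 2590.2 and 2011 CPM in the PBS livers. Only ACBP replicate 1 lay below a PBS library, PBS replicate 4, by a margin smaller than the spread within either group. Its log2 fold change was 0.40 ± 0.10 (adjusted p 0.345).

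Larger and less even values came from the serum amyloid A genes, whose lipoprotein-borne products mark acute inflammation. Saa1 (chr7:46740497-46742980) had 10.53, 96.9, 24.7, 28.5 and 18.7 CPM in the ACBP livers, against 11.5, 10.7, 14.6, 8.59 and 10.3 CPM in the PBS livers. ACBP replicate 2 was far above all other libraries, ACBP replicates 3, 4 and 5 were above every PBS library, and ACBP replicate 1 lay among them. Saa2 had 6.69, 37.2, 20.8, 13.2 and 12.9 CPM in the ACBP livers, against 6.60, 4.62, 9.24, 5.77 and 8.21 CPM in the PBS livers. ACBP replicates 2 to 5 exceeded every PBS library, and ACBP replicate 1 lay among them. The log2 fold changes were 1.69 ± 0.47 for Saa1 and 1.40 ± 0.37 for Saa2, with adjusted p 0.375 and 0.345. Saa1 and Saa2 are near-identical neighbours, so reads may be divided between them unevenly. Lcn2, a lipocalin that binds iron-carrying siderophores, had 12.5, 90.2, 19.8, 30.5 and 9.58 CPM in the ACBP livers, against 14.9, 10.6, 11.03, 7.77 and 8.08 CPM in the PBS livers. ACBP replicates 2, 3 and 4 were above the PBS range, and ACBP replicates 1 and 5 were inside it. Orm1, an alpha-1-acid glycoprotein, ranged from 858 to 1367 CPM in ACBP livers and from 604 to 823 CPM in PBS livers without overlap. Haptoglobin (Hp), the haemoglobin scavenger, reached 6795 CPM in ACBP replicate 2, against at most 4185 CPM in any other library. ACBP replicate 2 is also a library with muscle transcripts; when it and PBS replicate 2 were left out, 11 of 28 members had an unadjusted p under 0.05, all higher, the list median was 0.23, and Saa1 had a log2 fold change of 0.87.

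Markers of inflammatory cells were read beside these genes. The summed level of 15 macrophage and Kupffer cell markers was 546 to 645 CPM in ACBP livers and 474 to 588 CPM in PBS livers. Of these markers 3 had an unadjusted p under 0.05, all higher, where 4.56% of all genes were higher at that level. Among the 3 was Mpeg1, a pore-forming protein of macrophages. It had 39.9, 38.7, 46.1, 31.8 and 34.2 CPM in the ACBP livers, against 23.6, 29.4, 29.3, 29.3 and 25.1 CPM in the PBS livers. Every ACBP library was above every PBS library for Mpeg1, whose log2 fold change was 0.48 ± 0.12. Neutrophil and monocyte markers summed to 10.3 to 15.2 CPM in ACBP livers and 8.34 to 10.3 CPM in PBS livers. Of the 4 tested, 2 had an unadjusted p under 0.05, both higher. S100a8, a calcium-binding protein of neutrophils, stayed under 1.9 CPM in each of the 10 libraries. In whole liver, more cells of a type and more RNA per cell cannot be told apart. The part of these cells in the acute phase values was not tested.

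Complement genes had the same direction, and the terminal components led them. Of 22 tested members, 9 had an unadjusted p under 0.05, each higher in ACBP livers, where 4.56% of all genes were higher. The median log2 fold change was 0.25. Without ACBP replicate 4 there were 12 such members, and without ACBP replicate 2 and PBS replicate 2 there were 5. C8a and C8b encode the alpha and beta chains of C8, and C9 forms the ring of the membrane attack complex. C8b (chr4:104766317-104804548, plus strand) had 54.3, 84.2, 74.4, 54.1 and 81.6 CPM in the ACBP livers, against 37.1, 47.8, 39.98, 43.9 and 25.9 CPM in the PBS livers. Every ACBP library exceeded every PBS library, and the log2 fold change was 0.84 ± 0.18 (adjusted p 0.289; 0.0043 by DESeq2). For C8a, which adjoins C8b, the values were 204, 371, 259, 308 and 227 CPM in the ACBP livers, against 177, 174, 167, 176 and 188 CPM in the PBS livers, again without overlap. C9 had 132, 192, 200.1, 162 and 123 CPM in the ACBP livers, against 80.5, 97.2, 104, 127 and 81.6 CPM in the PBS livers, with ACBP replicate 5 just under the highest PBS library. C3, the component on which all activation routes converge, had 3768, 6217, 4991, 4099 and 4833 CPM in the ACBP livers, against 3668, 3309, 3864, 3622 and 3423 CPM in the PBS livers. Its groups overlapped only through ACBP replicate 1, and its log2 fold change was 0.42 ± 0.13.

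**Figure D2:**
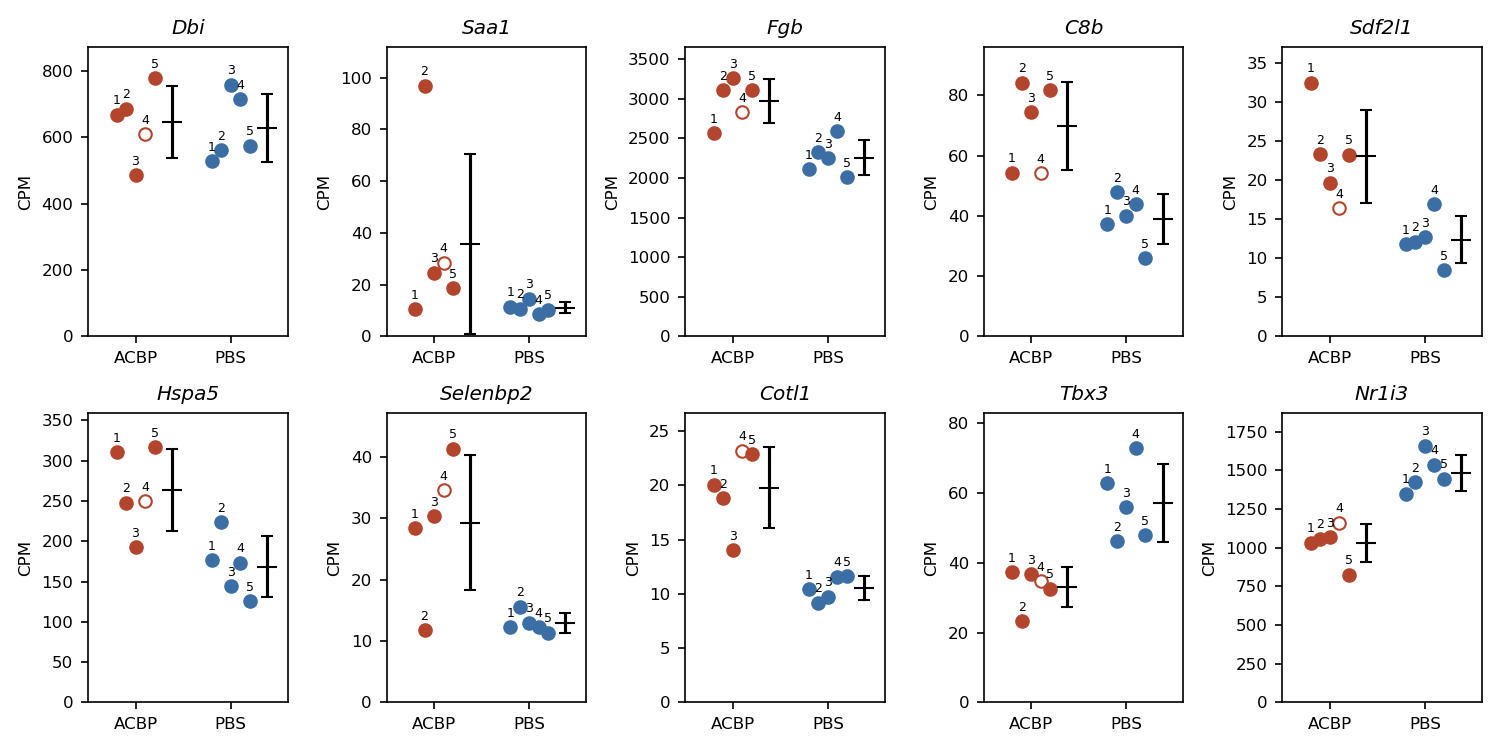
CPM of 10 genes in each ACBP library (red, left) and each PBS library (blue, right), numbered by replicate; the open circle is ACBP replicate 4, and the black bar gives the mean ± SD of 5 libraries. Dbi overlaps almost fully, C8b, Cotl1, Tbx3 and Nr1i3 do not overlap, and Saa1 is high in ACBP replicate 2 (96.9 CPM).

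Chaperones of the endoplasmic reticulum (ER) formed another group that stood above PBS. They fold secreted proteins, and their genes are switched on by the unfolded protein response, in which the transcription factors ATF6 and XBP1 bind, together with NF-Y, a promoter sequence called the ER stress response element. Of 22 tested members, 10 had an unadjusted p under 0.05, all higher in ACBP livers, where 4.56% of all genes were higher. The median log2 fold change was 0.36. The count was 11 without ACBP replicate 4 (median 0.33) and 11 without ACBP replicate 2 and PBS replicate 2 (median 0.36). The element was searched as CCAAT, a gap of any 9 bases and CCACG, on both strands of RefSeq promoters (GRCm38.p6), 250 bases before to 50 after each gene's start. It was present in 9 of the 19 tested members with a promoter in that table (47.4%). Of all tested genes with a promoter there, 20 of 10351 had it (0.193%), and of all genes 37 of 27025 (0.137%). The list holds known genes of this response, so that contrast follows from the choice of list and is no result of these libraries. Among members with an unadjusted p under 0.05 the element was found in 5 of 9, and among the others in 4 of 10. A match describes the letters and shows no binding. The promoters of those 5 are shown, because the element is the known response sequence of these genes, as the 170 bases that end just before the start, on the gene's own strand, with the fixed letters of the element in capitals (Hspa5 chr2:34771920-34772089, Creld2 chr15:88819476-88819645, Derl3 chr10:75893228-75893397, Pdia6 chr12:17266419-17266588, Calr chr8:84846932-84847101, with Calr on the minus strand and the others on the plus strand). In Creld2, Derl3 and Calr the element is on the opposite strand and so reads CGTGG, a gap, ATTGG.
Hspa5: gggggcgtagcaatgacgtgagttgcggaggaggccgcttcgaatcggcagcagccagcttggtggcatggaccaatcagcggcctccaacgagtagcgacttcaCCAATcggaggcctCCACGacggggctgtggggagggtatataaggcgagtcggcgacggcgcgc
Creld2: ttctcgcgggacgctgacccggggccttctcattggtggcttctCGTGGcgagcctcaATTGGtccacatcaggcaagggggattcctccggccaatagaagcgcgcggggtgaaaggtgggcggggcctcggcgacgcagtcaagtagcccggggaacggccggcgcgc
Derl3: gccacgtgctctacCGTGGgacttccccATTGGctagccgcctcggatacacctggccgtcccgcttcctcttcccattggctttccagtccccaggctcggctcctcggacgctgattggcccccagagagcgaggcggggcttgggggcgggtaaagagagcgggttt
Pdia6: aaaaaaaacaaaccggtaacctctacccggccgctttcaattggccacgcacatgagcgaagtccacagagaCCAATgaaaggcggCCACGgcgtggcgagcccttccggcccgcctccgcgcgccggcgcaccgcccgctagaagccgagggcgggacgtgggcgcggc
Calr: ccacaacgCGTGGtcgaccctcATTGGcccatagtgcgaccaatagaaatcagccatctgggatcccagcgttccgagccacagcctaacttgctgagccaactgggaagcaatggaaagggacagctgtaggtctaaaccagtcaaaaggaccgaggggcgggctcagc

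The genes of these promoters had the following levels. Hspa5 encodes BiP, the main ER chaperone of the Hsp70 family, and had 310.3, 248, 192, 249.9 and 317 CPM in the ACBP livers, against 176, 224, 144, 173 and 125 CPM in the PBS livers. Only ACBP replicate 3 fell within the PBS range, and the log2 fold change was 0.64 ± 0.17 (adjusted p 0.345). Creld2, a secreted ER stress protein, had 36.8, 25.4, 20.1, 26.3 and 29.3 CPM in the ACBP livers, against 20.98, 16.7, 12.8, 19.2 and 17.9 CPM in the PBS livers, with ACBP replicate 3 alone inside the PBS range. Calr, calreticulin, which holds glycoproteins until they fold, had 683, 646, 614, 541 and 629 CPM in the ACBP livers, against 446, 489.7, 521, 565 and 346 CPM in the PBS livers; ACBP replicate 4 was the only ACBP library below a PBS library. Pdia6, a disulfide isomerase, had a log2 fold change of 0.47 ± 0.15. Derl3 takes part in pulling misfolded proteins out of the ER and had 6.76, 13.2, 4.001, 0.813 and 8.11 CPM in the ACBP livers, against 1.67, 1.58, 2.11, 1.94 and 1.53 CPM in the PBS livers. Its 4 ACBP libraries other than replicate 4 exceeded every PBS library, and replicate 4 was below them all. Its log2 fold change was 1.89 ± 0.51 with all 10 libraries. Without ACBP replicate 4 it was 2.18 ± 0.31, with the smallest edgeR adjusted p of all genes (0.211). Derl3 passed the edgeR test when ACBP replicate 3 was left out as well (adjusted p 0.0378). ACBP replicates 3 and 4 held its lowest ACBP values, so leaving them out favours a pass.

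The 10 members without the element in that window had log2 fold changes between -0.10 and 0.89, and the 9 members with it between -0.07 and 1.89. Sdf2l1, part of an ER chaperone complex (chr16:17130138-17132383), had 32.4, 23.3, 19.6, 16.4 and 23.2 CPM in the ACBP livers, against 11.8, 12.1, 12.6, 16.9 and 8.46 CPM in the PBS livers. All ACBP libraries but replicate 4 were above every PBS library, and the log2 fold change was 0.89 ± 0.20, or 0.99 ± 0.19 without replicate 4 (adjusted p 0.324 and 0.288). Pdia4, a disulfide isomerase, had 86.4, 83.3, 94.02, 79.7 and 105 CPM in the ACBP livers, against 65.5, 62.97, 71.6, 68.8 and 49.2 CPM in the PBS livers, and Dnajb11, a co-chaperone of BiP, had 50.04, 59.8, 44.1, 49.2 and 69.9 CPM in the ACBP livers, against 36.2, 40.2, 41.3, 41.3 and 34.4 CPM in the PBS livers. Neither gene's groups overlapped, and these 3 had the smallest p of the members without the element. The signalling members Xbp1, Atf6 and Ern1 had log2 fold changes between -0.10 and 0.05. Members that are not signalling genes were near 0 as well, among them Herpud1 (0.08), Sel1l (0.07) and Syvn1 (-0.07). Genes of the ATF4 branch, which responds to amino acid stress, gave 0 of 20 at an unadjusted p under 0.05 and a median of 0.10.

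Ribosomal protein genes had small values of 1 sign. All 32 tested members had a positive log2 fold change, with a median of 0.23. An unadjusted p under 0.05 was reached by 10, where 4.56% of all genes were higher at that level. Without ACBP replicate 4 the count was 13, and without ACBP replicate 2 and PBS replicate 2 it was 4 with 30 of 32 above 0. Rplp1, of the ribosomal stalk, had 582, 768, 620.3, 542 and 681 CPM in the ACBP livers, against 424, 502, 593, 504 and 442 CPM in the PBS livers. The groups overlapped through ACBP replicates 1 and 4 and PBS replicate 3, and the log2 fold change was 0.37 ± 0.12. Rps15, of the small subunit, ranged from 500.2 to 679 CPM in ACBP livers and from 381 to 495 CPM in PBS livers.

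Transcripts of the mitochondrial genome, which encode subunits of the respiratory chain, went the other way. Of 12 tested, 4 had an unadjusted p under 0.05, each lower in ACBP livers, where 5.39% of all genes were lower. The median over the 12 was -0.26. The count was 6 without ACBP replicate 4 and 2 without ACBP replicate 2 and PBS replicate 2. mt-Co2, a cytochrome oxidase subunit, had 207, 249, 245, 209 and 303 CPM in the ACBP livers, against 367, 331, 257, 303 and 426 CPM in the PBS livers. Only ACBP replicate 5 lay above the lowest PBS library. At these levels mt-Co2 held a small part of all reads on mitochondrial genes, so it does not stand for their total. Reads on mitochondrial genes made up 8.30% to 11.7% of the reads on genes in ACBP libraries and 9.24% to 13.5% in PBS libraries. The difference in means was -1.69 percentage points, within the spread of the libraries (2-sided exact permutation test, p = 0.151, where the smallest possible p is 0.00794). Nuclear genes of the respiratory chain had a median of -0.01 over 30 members.

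The counts of these lists were smaller when all 30 libraries entered the fit. In 1 fit of all 6 groups of the study, 0% of 16304 genes passed and 4.38% had an unadjusted p under 0.05 for ACBP against PBS, 2.26% higher and 2.12% lower. In that fit 3 acute phase genes, 3 complement genes, 3 unfolded protein response genes and 1 ribosomal protein gene were higher at that level, and no mitochondrially encoded gene was lower. The medians were close to those of the 10 libraries: 0.40 for acute phase, 0.25 for complement, 0.37 for unfolded protein response, 0.25 for ribosomal protein and -0.25 for mitochondrially encoded genes.

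**Figure D3:**
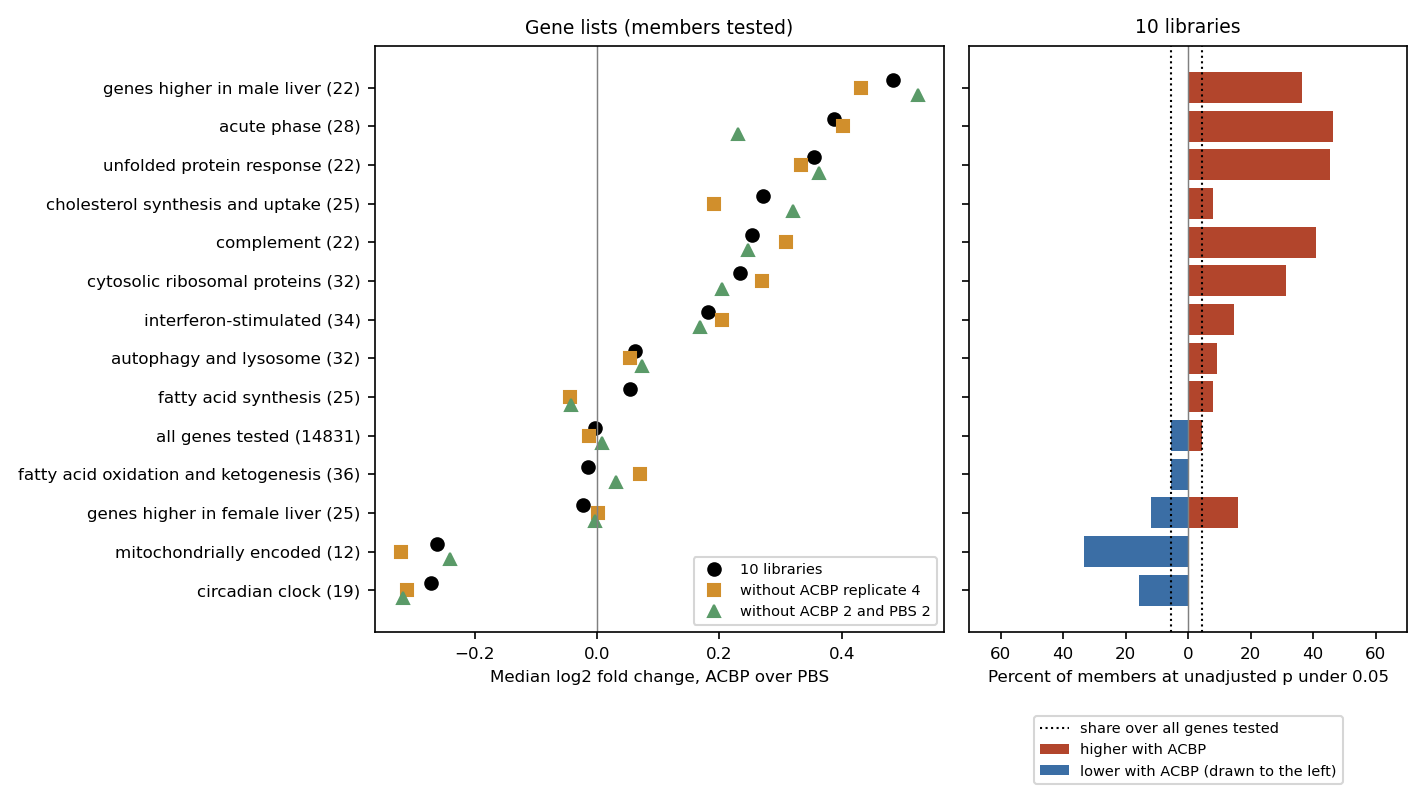
Left, the median log2 fold change (ACBP over PBS) of 13 gene lists and of all genes, with all 10 libraries and with libraries left out; the number of members tested is in brackets. Right, the percentage of members with an unadjusted edgeR p under 0.05, higher (red, to the right) or lower (blue, to the left) in ACBP livers, with dotted lines at the shares over all genes, 4.56% and 5.39%.

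Liver genes that differ between the sexes were examined because the mice were female. In mouse liver the pulsed growth hormone release of males drives one set of genes and the steadier release of females another. Of 22 tested genes known to be higher in male liver, 8 had an unadjusted p under 0.05, all higher in ACBP livers. Over all genes, 4.56% were higher and 5.39% lower at that level. The median of the list was 0.48, with 16 of 22 above 0, so some members went the other way. The 8 included C8b, which is also counted with complement. Without ACBP replicate 4 the count was 10. Of 25 genes known to be higher in female liver, 4 were higher and 3 lower at that level, with a median of -0.02. Selenbp2 (chr3:94693556-94704413), a selenium-binding protein, had 28.4, 11.7, 30.4, 34.6 and 41.4 CPM in the ACBP livers, against 12.3, 15.6, 12.96, 12.3 and 11.3 CPM in the PBS livers. All ACBP libraries except replicate 2 were above every PBS library. With all libraries the log2 fold change was 1.18 ± 0.25 (adjusted p 0.301). Without ACBP replicate 2 the gene passed the edgeR test, with a log2 fold change of 1.39 and an adjusted p of 0.00575, and it was the only gene to pass in that fit. It was also the gene that passed without both ACBP replicate 2 and PBS replicate 2 (adjusted p 0.00384). ACBP replicate 2 held the lowest ACBP value of Selenbp2, so leaving that library out favours a pass. The close paralogue Selenbp1 may share reads with Selenbp2.

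Other male-type genes were more scattered. Serpina1e, one of several near-identical antitrypsin genes, had 77.7, 134, 649, 98.5 and 256 CPM in the ACBP livers, against 5.74, 71.7, 18.04, 65.9 and 26.5 CPM in the PBS livers. Each ACBP library exceeded each PBS library although values were widely spread within each group, and the log2 fold change was 2.69 ± 0.70. Slco1a1, an organic anion transporter, had 20.3, 31.1, 24.7, 11.6 and 53.8 CPM in the ACBP livers, against 6.29, 17.9, 11.9, 16.99 and 7.57 CPM in the PBS livers, with ACBP replicate 4 inside the PBS range. Its log2 fold change was 1.22 ± 0.38, and 1.42 ± 0.34 without ACBP replicate 4. Mup20, the urinary pheromone darcin, had 35.3 ± 8.24 CPM in the ACBP livers and 22.2 ± 5.83 CPM in the PBS livers (SD, n = 5 each), as a member of a multigene family whose reads may be divided unevenly. Cux2, a female-type transcription factor that represses male genes, had 37.6, 200.9, 232, 119.7 and 65.6 CPM in the ACBP livers, against 215, 224, 285, 279.8 and 279 CPM in the PBS livers; ACBP replicates 1, 2, 4 and 5 were below the PBS range and ACBP replicate 3 was inside it. Bcl6, a male-type repressor, had 31.96 ± 12.5 CPM in the ACBP livers and 18.9 ± 5.09 CPM in the PBS livers (SD, n = 5 each). Igf1, the growth hormone target that circulates as a growth factor, had 974 ± 128 CPM in the ACBP livers and 803 ± 95.7 CPM in the PBS livers (SD, n = 5 each). Cyp2c40, a cytochrome P450 higher in female liver, had 238, 175, 292, 187 and 305 CPM in the ACBP livers, against 185, 166, 192, 163 and 138 CPM in the PBS livers. ACBP replicates 1, 3 and 5 were above the PBS range, and the log2 fold change was 0.50 ± 0.17; close paralogues may share its reads. The sulfotransferase Sult2a1, which conjugates bile acids and steroids and is higher in female liver, had 148, 157, 116, 204 and 150.5 CPM in the ACBP livers, against 279, 194, 320.1, 233 and 286 CPM in the PBS livers. ACBP replicate 4 alone lay above a PBS library, and the log2 fold change was -0.76 ± 0.16, or -0.88 ± 0.16 without it (adjusted p 0.288).

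Genes of fatty acid synthesis and oxidation, in the field where ACBP is best known, gave few values outside the spread. Fatty acid synthesis had 2 of 25 members higher at an unadjusted p under 0.05 and a median of 0.05; without ACBP replicate 4 it had 1 and a median of -0.04. One of the 2 was Scd2, a desaturase with 38.7 CPM in ACBP replicate 4 and at most 4.87 CPM elsewhere, whose log2 fold change was 1.47 ± 0.67 with that library and -0.04 ± 0.27 without it. Agpat2, an enzyme of triglyceride and phospholipid synthesis, had 169.9, 180.04, 125, 108 and 177 CPM in the ACBP livers, against 128, 109, 105, 110.3 and 105 CPM in the PBS livers, and ACBP replicates 3 and 4 lay inside the PBS range. Fasn, fatty acid synthase, had 808, 556, 270.4, 597 and 746 CPM in the ACBP livers, against 501, 851, 500.5, 1391 and 828 CPM in the PBS livers, and the groups overlapped widely. Srebf1, the transcription factor that drives these genes, had a log2 fold change of -0.56 ± 0.27 with an unadjusted p of 0.0629. Of all genes, 4.56% were higher and 5.39% lower at that level. Fatty acid oxidation and ketogenesis had a median of -0.01. It had 2 of 36 members at an unadjusted p under 0.05, both lower, near the share over all genes. One was Pdk4, which blocks glucose oxidation: it had 80.5 CPM in PBS replicate 2, a library rich in muscle transcripts, and 2.06 to 9.15 CPM in the other 9, so its log2 fold change of -2.12 became 0.52 without that library. The other was Ppargc1a, a coactivator of mitochondrial genes, with 10.1 ± 2.09 CPM in the ACBP livers and 13.9 ± 4.38 CPM in the PBS livers (SD, n = 5 each).

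Angiopoietin-like proteins and lipases had 2 of 8 members at an unadjusted p under 0.05, both lower, although the median was 0.06 and 5 of 8 were above 0. Lipg, endothelial lipase, which acts on high-density lipoproteins, had 8.64, 16.1, 7.70, 11.01 and 9.70 CPM in the ACBP livers, against 10.2, 32.7, 24.98, 25.4 and 37.5 CPM in the PBS livers. Only ACBP replicates 2 and 4 exceeded the lowest PBS library, PBS replicate 1, and the log2 fold change was -1.30 ± 0.30 (adjusted p 0.324 by edgeR, 0.00535 by DESeq2). Angptl8, a feeding-induced inhibitor of lipoprotein lipase, had 270.4, 128, 189, 413 and 141 CPM in the ACBP livers, against 224, 450.3, 235, 1013 and 598 CPM in the PBS livers. The groups overlapped, with PBS replicate 4 far above the rest and a log2 fold change of -1.14 ± 0.42. It overlaps Dock6 on the other strand, so its counts are uncertain. Cholesterol synthesis and uptake had a median of 0.27 over 25 members, with 19 above 0 and 2 higher at an unadjusted p under 0.05. Cyp51, a sterol demethylase, had 127, 133, 87.8, 124 and 157 CPM in the ACBP livers, against 55.3, 95.9, 112, 105 and 30.9 CPM in the PBS livers, and 4 of 5 ACBP libraries were above the PBS range. In bile acid metabolism, 3 of 14 members were higher and 1 lower at that level. Cyp8b1, the enzyme that sets the share of cholic acid, had 183, 48.5, 44.4, 80.5 and 115 CPM in the ACBP livers, against 30.4, 59.1, 55.4, 45.2 and 27.7 CPM in the PBS livers, with 3 of 5 ACBP libraries above the PBS range. Nr0b2 (SHP), the receptor that represses bile acid synthesis, had 45.2, 86.4, 82.4, 113 and 38.3 CPM in the ACBP livers, against 39.7, 41.1, 46.7, 18.6 and 40.02 CPM in the PBS livers. ACBP replicates 2, 3 and 4 were above the PBS range. Gluconeogenesis had 1 of 16 members lower at that level and a median of -0.07. Of all genes, 4.56% were higher and 5.39% lower at that level.

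Autophagy and lysosome genes had 3 of 32 members at an unadjusted p under 0.05, all higher in ACBP livers. Of all genes, 4.56% were higher at that level. The median of the list was 0.06, and without ACBP replicate 4 there were 4 such members. Sqstm1, the cargo receptor p62, had 333, 341, 304, 236 and 331 CPM in the ACBP livers, against 251, 279.9, 248, 248 and 199 CPM in the PBS livers. ACBP replicate 4 was the only ACBP library inside the PBS range, and the log2 fold change was 0.33 ± 0.13. Ctsl, the lysosomal protease cathepsin L, had 325, 342, 413, 246 and 369 CPM in the ACBP livers, against 205, 286, 309, 239.9 and 199 CPM in the PBS livers, ACBP replicate 4 alone inside the PBS range, with a log2 fold change of 0.45 ± 0.16. mRNA levels do not measure autophagic flux.

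Hepatokines and appetite hormones, which the liver secretes into the blood, had 3 of 15 members higher and 0 lower at an unadjusted p under 0.05. Of all genes, 4.56% were higher at that level. The median of the list was 0.15, with 12 of 15 above 0. Those 3 members were Enho, Lcn2 and Igf1. Lcn2 is described above with acute phase genes and Igf1 with growth hormone, so the lists are not independent. Enho encodes adropin, a secreted peptide of energy balance, and had 37.6, 50.2, 33.6, 39.4 and 56.4 CPM in the ACBP livers, against 17.5, 31.3, 20.95, 33.2 and 30.9 CPM in the PBS livers. Every ACBP library exceeded every PBS library, and the log2 fold change was 0.70 ± 0.19; the gene overlaps Dnaic1 on the other strand, which makes its counts uncertain. Gdf15, a stress hormone that lowers food intake, had 34.1, 18.5, 42.6, 59.8 and 8.30 CPM in the ACBP livers, against 9.69, 19.1, 29.4, 12.4 and 18.96 CPM in the PBS livers, with overlapping groups (unadjusted p 0.0661). Leap2, which antagonises the hunger hormone ghrelin, had 73.8 ± 20.6 CPM in the ACBP livers and 66.3 ± 12.7 CPM in the PBS livers (SD, n = 5 each).

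Targets of Wnt signalling and of pericentral hepatocytes, the cells around the central vein, included 2 of 12 markers at an unadjusted p under 0.05, both lower. The median over the 12 was -0.10, with 4 above 0. Without ACBP replicate 4 it was -0.05, with 6 above 0. Without ACBP replicate 2 and PBS replicate 2 it was -0.09, with 2 above 0, so the number of markers below 0 depended on the libraries kept. Tbx3, a T-box transcription factor of pericentral hepatocytes (chr5:119670669-119684724, plus strand), had 37.4, 23.2, 36.8, 34.8 and 32.6 CPM in the ACBP livers, against 62.9, 46.2, 55.98, 72.9 and 47.8 CPM in the PBS livers. The groups did not overlap, and the log2 fold change was -0.79 ± 0.15 (adjusted p 0.289; 0.00306 by DESeq2). Axin2, a feedback inhibitor of Wnt signalling, had 14.8, 6.36, 12.5, 6.76 and 13.4 CPM in the ACBP livers, against 27.9, 13.99, 17.2, 26.96 and 18.5 CPM in the PBS livers. ACBP replicate 1 alone was above the lowest PBS library. Summed over the 12 markers, the level was 5005 to 7157 CPM in ACBP livers and 4909 to 8109 CPM in PBS livers. Of all genes, 5.39% were lower at an unadjusted p under 0.05. Clock genes had a median of -0.27 over 19 members, 3 of them lower at that level. Among them were Bhlhe40, a transcriptional repressor of the clock, with a log2 fold change of -0.55 ± 0.23, and Cry2, a core clock repressor, with -0.26 ± 0.11. The labels name no hour at which livers were taken.

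The genes with the smallest p values among well expressed genes were of varied function. Cotl1 (chr8:119809222-119840544), an actin-binding protein, had 20.1, 18.8, 14.003, 23.2 and 22.9 CPM in the ACBP livers, against 10.43, 9.19, 9.73, 11.6 and 11.6 CPM in the PBS livers. Every ACBP library was above every PBS library, and the log2 fold change was 0.91 ± 0.15 (adjusted p 0.289). It passed the edgeR test when ACBP replicate 3 was left out (adjusted p 0.0289), but not when any other single library was. ACBP replicate 3 held the lowest ACBP value of Cotl1, so leaving that library out favours a pass. Fam213a, a peroxiredoxin-like protein, had 58.3, 56.4, 60.1, 71.8 and 63.5 CPM in the ACBP livers, against 32.6, 43.4, 41.7, 42.6 and 29.7 CPM in the PBS livers, also without overlap. Qsox1, a secreted enzyme that forms disulfide bonds, had 272, 344, 266, 255 and 309.9 CPM in the ACBP livers, against 231, 164, 173, 164 and 159.8 CPM in the PBS livers, and PBS replicate 1 stood above the other PBS libraries. Gjb1, the gap junction protein connexin 32 of hepatocytes, had a log2 fold change of 0.52 ± 0.11, and Apol9a one of 0.56 ± 0.11; Apol9a shares sequence with Apol9b.

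On the lower side, Nr1i3 (CAR), the nuclear receptor that switches on drug-metabolising enzymes, and Tomm40l, a mitochondrial import channel homologue, overlap on opposite strands. Nr1i3 had 1031, 1057, 1066, 1160.4 and 826 CPM in the ACBP livers, against 1348, 1423, 1658, 1536 and 1446 CPM in the PBS livers. No library of 1 group reached the range of the other, and the log2 fold change was -0.53 ± 0.11 (adjusted p 0.289). Tomm40l averaged 995 CPM in ACBP livers and 1449 CPM in PBS livers, close to the Nr1i3 means of 1028 CPM in ACBP livers and 1482 CPM in PBS livers. The strand setting of the counting is not given, so reads of the pair may not have been told apart. Both are therefore taken here as 1 signal. Mfsd11, a transporter-family protein that overlaps Srsf2, had 37.2, 33.02, 43.9, 45.1 and 32.03 CPM in the ACBP livers, against 55.3, 60.5, 54.3, 60.1 and 63.1 CPM in the PBS livers. Qtrtd1, a subunit of the enzyme that places queuine in transfer RNA, had 9.55, 10.6, 10.1, 12.7 and 12.6 CPM in the ACBP livers, against 17.9, 14.5, 19.5, 17.7 and 18.6 CPM in the PBS livers. Neither gene's groups overlapped. Rcor3, a corepressor, had a log2 fold change of -0.55 ± 0.11, Dcaf6, a ubiquitin ligase receptor, one of -0.56 ± 0.11, and Pfkfb2, a regulator of glycolysis, one of -0.69 ± 0.17.

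Red cell transcripts were high in ACBP replicate 4. The 7 erythroid markers summed to 1563 CPM in that library, 430.1 to 525 CPM in the other ACBP libraries and 260 to 479 CPM in PBS libraries. Of 5 tested, 3 had an unadjusted p under 0.05 with that library and 1 without it, each higher. Over all genes, 4.56% were higher at that level with it and 4.24% without it. Hbb-bs, an adult beta globin, had 162, 104, 102, 256 and 119 CPM in the ACBP livers, against 83.8, 108, 55.05, 116 and 88.3 CPM in the PBS livers; ACBP replicates 1, 4 and 5 were above the PBS range. Alas2, the first enzyme of haem synthesis in red cells, had a log2 fold change of 0.76 ± 0.27, and 0.42 ± 0.19 without ACBP replicate 4.

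The ACBP pump was also compared with PBS in mice with CRS and in mice with CDDP, and the difference between the pump effects was tested. These pairs share no library with the comparison above. In mice with CRS, 0 of 14880 genes (0%) passed the edgeR test for the pump, 834 (5.6%) had an unadjusted p under 0.05 and no other tool was run. Of the 1449 genes with an unadjusted p under 0.05 in ACBP against PBS livers that were tested in both, 71.0% had the same sign in mice with CRS, against 60.6% of all 14470 genes tested in both. In mice with CDDP, 34.8% of 1440 such genes had the same sign, against 43.2% of all 14351 genes tested in both. The difference between the pump effects without and with CRS passed for 1 of 15762 genes (0.00634%), Saa2. On a scale common to all 30 libraries, Saa2 averaged 17.9 CPM in ACBP livers and 6.74 CPM in PBS livers, but 56.4 CPM in CRS+ACBP livers and 977 CPM in CRS livers. The pump effect with CRS minus that without was -5.52 ± 0.82 on the log2 scale (adjusted p 0.0171). The CRS+ACBP values were 126, 90.5, 7.57, 30.7 and 26.8 CPM and the CRS values 969, 603, 1337, 396 and 1578 CPM, without overlap. Acute phase genes as a list had 7 of 28 members lower and 0 higher at an unadjusted p under 0.05 in the pump effect with CRS, where 3.24% of all genes were lower and 2.37% higher.

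Tnfrsf14, a receptor of the tumour necrosis factor family, was named after its values were seen, because its levels are under 5 CPM on average. It had 8.19, 3.44, 0.242, 8.82 and 3.23 CPM in the ACBP livers, against 0.494, 0.548, 0.744, 0.251 and 0.255 CPM in the PBS livers. All ACBP libraries but replicate 3 exceeded every PBS library, and ACBP replicate 3 was below them all; without that library the gene passed the edgeR test (adjusted p 0.0289). In mice with CRS, the receptor averaged 7.86 CPM in CRS+ACBP livers and 9.58 CPM in CRS livers. The log2 fold change without CRS was 3.36 ± 0.70, and the test of the difference between the pump effects gave an adjusted p of 0.243.

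**Figure D4:**
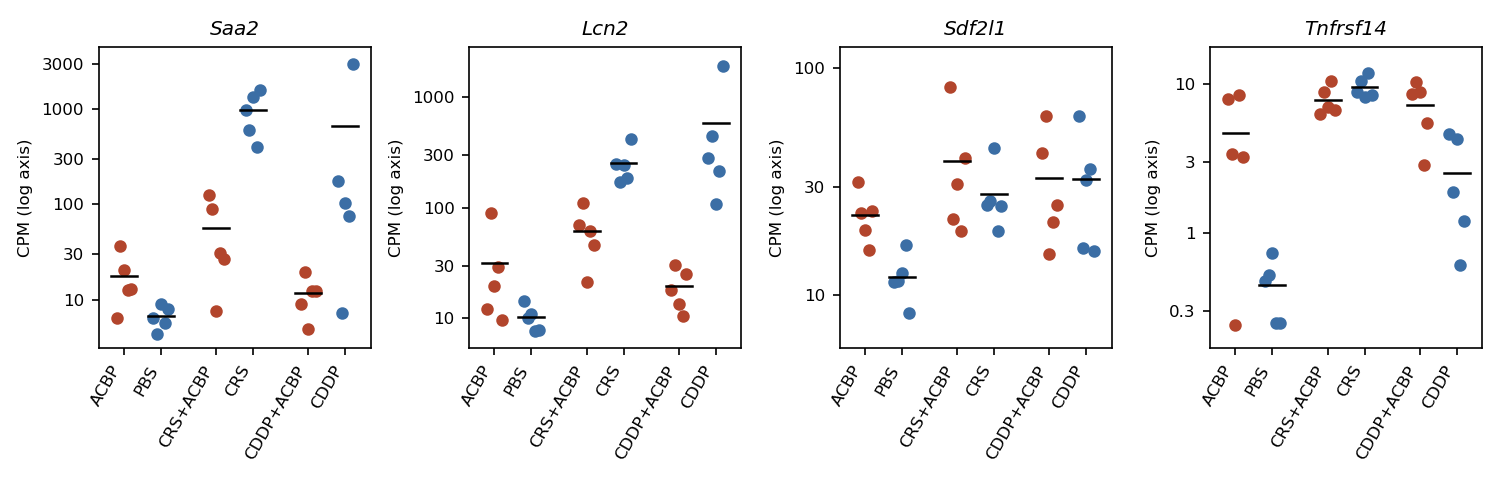
CPM (log axis, scaled over all 30 libraries) of 4 genes in the ACBP pump groups (red) and, to the right of each, the PBS pump group it is set against (blue): ACBP and PBS, CRS+ACBP and CRS, CDDP+ACBP and CDDP. Lines are means of 5 libraries; Saa2 is higher with ACBP than with PBS on average but lower with CRS+ACBP (56.4 CPM) than with CRS (977 CPM).

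In mice with CDDP, 2217 of 14779 genes (15%) passed the edgeR test for the pump, 6.59% of them higher and 8.41% lower as shares of all genes. The difference between the pump effects without and with CDDP passed for 2425 of 15851 genes (15.3%), 6.81% higher and 8.49% lower. The 6 genes of smallest p were Hectd2, Hbb-bs, Hba-a1, Hba-a2, Dleu2 and Aldh3b3, each lower on average in CDDP livers than in ACBP, PBS and CDDP+ACBP livers. Hectd2, of the ubiquitin ligase family, averaged 67.3 CPM in ACBP livers and 57.5 CPM in PBS livers, and 71.7 CPM in CDDP+ACBP livers and 4.34 CPM in CDDP livers. Hba-a1, an alpha globin, averaged 396 CPM in ACBP livers and 223 CPM in PBS livers, and 423 CPM in CDDP+ACBP livers and 1.34 CPM in CDDP livers. Acute phase genes had 18 of 28 members that passed in the pump effect with CDDP, all lower, against none in ACBP livers, where 13 had an unadjusted p under 0.05 in the opposite direction. The ribosomal protein genes had 24 of 32 that passed, all lower, with CDDP. In the same pump effect, 8 of 8 tested B and plasma cell markers (median 3.36) and 5 of 5 tested erythroid markers (median 8.33) passed, all higher. Other cell markers were mixed. Of 16 sinusoidal endothelium markers 3 passed higher and 1 lower, and of 15 Kupffer cell and macrophage markers 1 higher and 1 lower. Only lower ones passed among neutrophil and monocyte markers (2 of 5) and general hepatocyte markers (3 of 10). Only higher ones passed among pericentral hepatocyte markers (3 of 12) and stellate cell markers (3 of 16). The part of these cells in the acute phase and ribosomal values was not tested.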

How the data were processed

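Liver mRNA was measured in strand-specific libraries made from 1.5 µg of total RNA, per the labels. The authors deposited 1 table of raw counts, made with HISAT2 2.2.1 as aligner, HTSeq 2.0.3 as counter and mm10 as genome, per the submitters' processing notes. The strand setting of the counting is not given in the sources used here, so values of overlapping genes on opposite strands are uncertain. The table held 48440 genes, 99.2% of them matched to GENCODE vM21 for coordinates, and 5 summary lines, which were left out of library sizes; reads on no gene made up 40.9% to 43.9% per library. Within a group, every pair of libraries differed beyond sampling noise (chi-square divided by its degrees of freedom, 22.9 to 79.7), so none is a copy of another; this does not show that each came from its own mouse.

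Groups came from the treatment labels. The test was that of edgeR 4.0.16 under R 4.3.3 (filterByExpr, TMM normalization, quasi-likelihood F test, Benjamini-Hochberg adjustment over all genes tested, threshold 0.05) on the 10 libraries alone, again without ACBP replicate 4, and, for the difference between pump effects, on 20 libraries each. The procedure was first tested on simulated data. CPM use the TMM library size, and each standard error is the absolute log2 fold change over the root of its F value. Depth, 15147974 to 16797443 reads on genes per library, limits genes of a few CPM most. The 58 gene lists (37 pathways, 21 cell or tissue markers) and the members of the comparison were chosen with earlier results of these data known. Named genes are Dbi; the 6 genes of smallest p in each direction with and without ACBP replicate 4, with at least 5 CPM on average in 1 group and a settled symbol, since none passed the test; up to 3 members of smallest p per list, or other members of a described list; the 10 genes of largest ratio in ACBP replicate 4; and the 6 of smallest p for each difference between pump effects. Some named genes are not reported here. Others are said to have been named after their values were seen. Alternatives were RLE normalization, 2 other filters, DESeq2 1.42.0, limma 3.58.1 (voom with sample quality weights), a test against a fold of 1.5, 1 fit of all groups, a brain transcript covariate, and leaving out each library or the 2 libraries with a mean log2 muscle level over 5. Promoters and the coding sequence came from RefSeq and GENCODE tables; tables were joined in pandas 2.3.3 (Python 3.11.15, numpy 2.4.6), the exact test came from scipy 1.17.1 and the figures from matplotlib 3.10.9.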

Additional observations from a re-analysis of the deposited data

Results flagged for a closer look

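Dixon's test at the 95% level was applied to each named gene and marker sum in each group of 5, 210 cases in all, of which it marks about 5% by chance. The brain genes tested were chosen for being high in ACBP replicate 4, so their marks follow from that choice. The values it marked in ACBP replicate 4 were those of the brain genes Snap25 (56.0 CPM), Adcy1 (58.9), Cbln3 (41.2), Rgs8 (37.1), Calb1 (28.2), Zic1 (24.4), Cbln1 (23.5), Slc1a3 (34.5), Mobp (20.6), Mbp (66.9) and Gabra6 (18.8), the desaturase Scd2 (38.7 CPM), and the alpha globins Hba-a1 (1006 CPM) and Hba-a2 (205 CPM). The summed neuron markers stood at 320 CPM, the oligodendrocyte markers at 195 CPM and the erythroid markers at 1563 CPM in that library. In ACBP replicate 2 they were the acute phase genes Saa1 (96.9 CPM), Lcn2 (90.2 CPM), Orm1 (1367 CPM) and Hp (6795 CPM) and the muscle markers (2679 CPM summed); whether the acute phase values go with the muscle transcripts was not tested. PBS replicate 2 had 13855 CPM of muscle markers and 80.5 CPM of Pdk4. Single libraries also stood apart for Agpat2 (PBS replicate 1, 128 CPM), Qsox1 (PBS replicate 1, 231 CPM), Nr0b2 (PBS replicate 4, 18.6 CPM), Znrf3 (ACBP replicate 5, 7.87 CPM) and S100a8 (ACBP replicate 3, 0.364 CPM).

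The pump effect differed by a test of the difference itself (edgeR, adjusted p under 0.05) for Saa2 between mice with CRS and without, by -5.52 on the log2 scale. Between mice with CDDP and without it differed for Hectd2 (3.83), Hbb-bs (8.25), Hba-a1 (7.49), Hba-a2 (8.23), Dleu2 (2.17) and Aldh3b3 (6.28). Each figure is the log2 pump effect with the anorexia model minus that without it.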

How the results depend on the processing

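Whether any gene passes depended on the tool and on the libraries kept. edgeR gave 0 genes with RLE normalization, with either other filter, with a test against a fold of 1.5, in 1 fit of all groups and with either brain covariate, and limma voom gave 0; the fit of all groups also lowered the list counts, as acute phase genes (3 of 28); DESeq2 gave 87, or 108 without ACBP replicate 4. Leaving out 1 library gave 0 to 3 genes, and 0 to 1 in the 9 libraries without ACBP replicate 4. Selenbp2 passed in both sets without ACBP replicate 2 and without the muscle-rich pair (1 gene each). Without ACBP replicate 3, Cotl1, Tnfrsf14 and Slc16a5 passed in the larger set and Derl3 in the smaller. For Selenbp2, Cotl1 and Tnfrsf14 the ACBP library left out held the gene's lowest ACBP value. For Derl3 the ACBP libraries left out held its lowest ACBP values. For the difference between pump effects with CRS, DESeq2 gave 6 genes, no filter on low counts gave 2 and 1 fit of 30 libraries gave 0; with CDDP the count lay between 1747 and 3216. The difference in mitochondrial reads ranged from -2.24 to -1.17 percentage points as libraries were left out. Log2 fold changes near 0, or resting on 1 library, turned sign. Leaving out 1 library at a time gave -0.036 to 0.13 for Dbi, below 0 without ACBP replicate 5 or PBS replicate 1 (-0.015). It gave -0.044 to 1.73 for Scd2, below 0 without ACBP replicate 4, and -2.60 to 0.52 for the log2 fold change of Pdk4, above 0 without PBS replicate 2. It gave -0.012 to 0.28 for Leap2, below 0 without ACBP replicate 1, and -0.31 to 0.13 for Aldh3b3, above 0 without ACBP replicate 2 (0.099) or PBS replicate 4. Without the muscle-rich pair, the values were -0.020 for Dbi, 0.041 for Pdk4 and 0.079 for Aldh3b3. With neuron and oligodendrocyte markers as a covariate, a setting added after seeing the data, Scd2 had -0.071. No paired analysis was possible because the labels number the libraries through the whole study and share no number between groups.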

Other observations

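The following genes were named after their values were seen and are given as values only. Rnf43 had 21.8, 21.9, 24.6, 31.3 and 30.1 CPM in the ACBP livers, against 48.1, 31.6, 36.8, 44.4 and 40.1 CPM in the PBS livers, and Znrf3 had 11.3, 11.5, 10.7, 11.01 and 7.87 CPM in the ACBP livers, against 15.8, 15.5, 16.6, 15.05 and 15.97 CPM in the PBS livers. Both encode ubiquitin ligases that remove Wnt receptors, and neither gene's groups overlapped (log2 fold changes -0.63 ± 0.14 and -0.59 ± 0.12, edgeR adjusted p 0.324 and 0.289). Srsf2, whose product binds exonic splicing enhancers, had 226, 187, 255, 264 and 187 CPM in the ACBP livers, against 324, 314, 292, 346 and 350.2 CPM in the PBS livers, and Srrm2, a scaffold of nuclear speckles, had 292, 233, 286, 283 and 207 CPM in the ACBP livers, against 329, 342, 359, 384 and 429 CPM in the PBS livers. Both sets of libraries were separate, and the log2 fold changes were -0.54 ± 0.12 and -0.50 ± 0.12. Srsf2 overlaps Mfsd11, so the 2 values may share reads.

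Interferon-stimulated genes had 5 of 34 members at an unadjusted p under 0.05, all higher, and a median of 0.18; without ACBP replicate 4 there were 2. Isg15, a ubiquitin-like protein, had 24.4, 16.3, 23.5, 19.5 and 20.99 CPM in the ACBP livers, against 18.02, 13.1, 15.002, 15.1 and 13.3 CPM in the PBS livers, and ACBP replicate 2 alone was inside the PBS range. Immediate early genes, which respond within minutes to stimuli including tissue handling, had 2 of 19 members higher at that level with all libraries, 0 without ACBP replicate 4 and 7 without ACBP replicate 2 and PBS replicate 2. Cell cycle genes had 0 of 21 at that level, and p53 targets had 1 higher and 1 lower of 22. With all 10 libraries, 4.56% of all genes were higher and 5.39% lower at that level.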
